A study of Mus musculus with 6 samples.

Results

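Collagen genes were examined in single cells of the injured mouse rotator cuff enthesis, the site where tendon attaches to bone. A gene was counted as a collagen gene if its symbol read Col, a number, a and a number with nothing after it, which gave 44 of the 32285 genes listed. They fell into 11 fibrillar collagens, 9 fibril-associated collagens (FACITs), 6 basement membrane chains, 6 beaded filament chains, 3 network-forming collagens, 1 anchoring fibril collagen, 2 multiplexins, 4 transmembrane collagens and 2 others. All 44 matched the mouse annotation by identifier and symbol and are annotated as protein-coding. Enthesis tissue was harvested at 7 days post injury (dpi) after supraspinatus tendon transection and suture repair, pooled, and sequenced with droplet-based 3′ chemistry that counts unique molecular identifiers (UMIs). Of the 6 libraries, 3 came from wild-type C57BL/6 mice and 3 from Nlrp3-/- mice, which lack the sensor of the NLRP3 inflammasome, and every library had received the same injury and repair. Mice were operated on at 12 to 14 weeks of age. Wild-type and Nlrp3-/- mice were obtained from different suppliers, and no uninjured tissue was analysed here. The replicate is the library, and the labels do not tie libraries to separate animals, so p-values measure the spread between libraries, which may be partly technical.

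Collagens are secreted proteins whose chains wind into long helices and give tissues their tensile strength. Fibrillar collagens form the ropes of tendon, bone and cartilage, FACITs sit on the surface of those fibrils, and the basement membrane chains form sheets under endothelium and around vessel wall cells. In a healing enthesis, tendon fibroblasts lay down mainly type I and type III collagen, while the fibrocartilage of the insertion is marked by type II collagen and its partners, types IX, X and XI.

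The libraries held 97042713 to 134901999 UMIs, and 76676 cells were kept, 12571 of them mesenchymal. Nlrp3 itself lay between 85.9 and 154 CPM (UMIs per 1000000 UMIs) in wild-type cells as a whole, and Nlrp3-/- cells had 0 UMIs of it. The genotype field of Nlrp3-/- replicates 2 and 3 names Nlrp4 and Nlrp5 instead, while their titles name Nlrp3. Xist, transcribed from the inactive X chromosome, averaged 893 CPM in Nlrp3-/- libraries and 0.0723 CPM in wild-type libraries, and the Y-linked Ddx3y averaged 49.4 CPM in wild-type and had 0 UMIs in Nlrp3-/- libraries. Sex and genotype therefore cannot be told apart in any comparison of the groups. Nlrp3-/- replicate 1 stood apart, with 45.6% of its cells in shallow clusters that were set aside and a median of 7380.5 UMIs per mesenchymal cell, against 13285 to 17310 in the other libraries. Between 22 and 84 cell barcodes were shared by each pair of libraries. Wild-type replicate 3 also stood apart for the collagens, as described with the genotype comparison. Cell types were named by resemblance to marker lists that hold no collagen, and the 44 genes were left out of the clustering. Each cell type named below stands for cells that resemble it.

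Mesenchymal cells carried the bulk of the collagen RNA. Collagen genes made up 5.41%, 5.18% and 10.4% of their UMIs in wild-type replicates 1, 2 and 3, and 8.26%, 10.0% and 8.82% in the Nlrp3-/- libraries. Wild-type replicates 1 and 2 were the lowest, while wild-type replicate 3 was the highest of the 6. Mural cells, the pericytes and smooth muscle cells around vessels, followed with 2.17% to 4.72%. Endothelial cells stood at 0.599% to 0.858%. These values are a description without a test, because collagens belong to what makes a cell mesenchymal. The free RNA of the suspension, read from barcodes with at most 100 UMIs, was itself 1.23% to 3.45% collagen, so the level in each cell type was set beside it. Mesenchymal cells held 2.86 to 4.39 times the collagen share of the free RNA of their own library, mural cells 0.989 to 1.91 times and endothelial cells 0.222 to 0.486 times. Nevertheless, 22 members in mesenchymal cells, 13 in mural cells and 5 in endothelial cells lay above the free RNA in all 6 libraries, and no member did so in the immune and blood cell types.

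**Figure D1:**
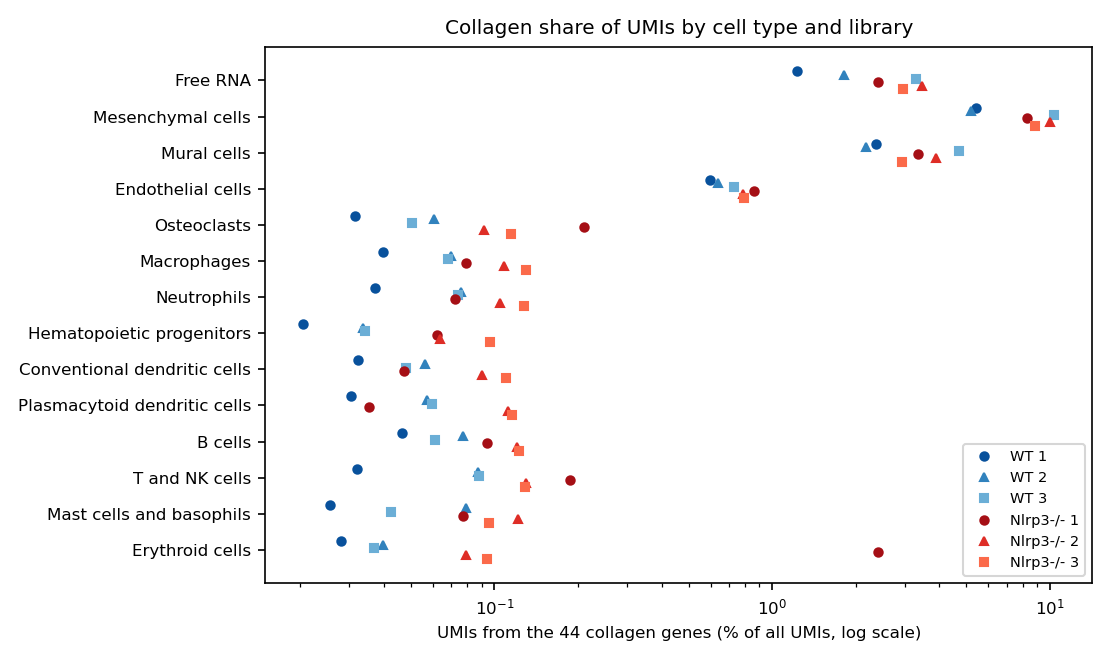
Percent of UMIs from the 44 collagen genes (horizontal log axis) in the free RNA and in 13 cell types, 1 point per library, with wild-type (WT) libraries in blue and Nlrp3-/- libraries in red. Mesenchymal cells lie between 5.18% and 10.4%, mural and endothelial cells follow, and the immune types lie at or below 0.209%, apart from erythroid cells of Nlrp3-/- replicate 1 at 2.40%.

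Of the 44 members, 32 reached 20 CPM in a cell type or mesenchymal subset and are described. By mean level over the 6 libraries, 25 of the 32 were highest in mesenchymal cells, 4 in mural cells (Col4a5, Col5a3, Col6a3 and Col18a1) and 3 in endothelial cells (Col4a1, Col4a2 and Col15a1). Col4a5 averaged 13.1 CPM in mural and 6.98 CPM in mesenchymal cells and was higher in mural cells in 4 of 6 libraries. In mural cells only its Nlrp3-/- mean reached 20 CPM, as given with the genotype comparison. The other 12 were Col4a3, Col4a4, Col4a6, Col6a4, Col6a5, Col13a1, Col17a1, Col19a1, Col20a1, Col25a1, Col26a1 and Col28a1, with 7 to 454 UMIs each over all cells. Among these, Col13a1, a transmembrane collagen, averaged 10.4 CPM in endothelial cells, and Col6a4, a type VI chain, averaged 9.44 CPM in mural cells. Both lay above the free RNA in every library, Col13a1 by 5.09 to 36.9 times and Col6a4 by 16.7 to 76.0 times. In the free RNA, however, Col13a1 was at only 0.617 to 1.29 CPM and Col6a4 at 0.154 to 0.805 CPM, so these folds rest on few UMIs.

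**Figure D2:**
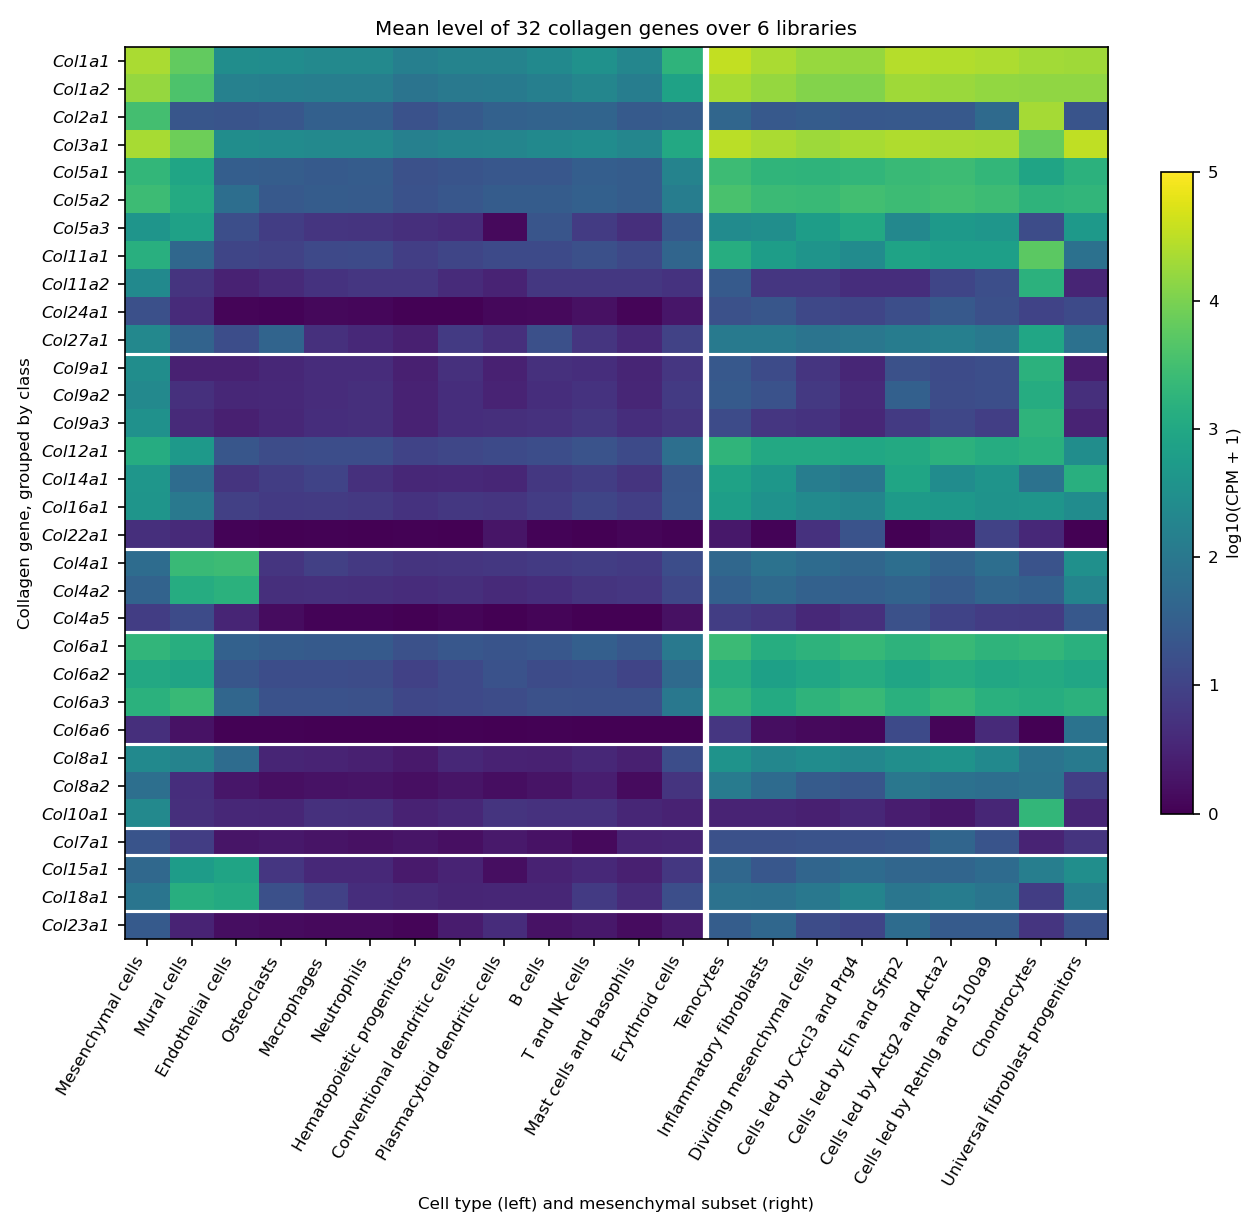
Mean level over 6 libraries, as log10 of CPM plus 1, of the 32 described collagen genes (rows, grouped by class) in 13 cell types (left) and 9 mesenchymal subsets (right). Fibrillar members other than Col5a3 are brightest in mesenchymal cells, Col4a1, Col4a2, Col15a1 and Col18a1 in endothelial and mural cells, and Col2a1, Col9a1 to Col9a3, Col10a1 and Col11a2 in chondrocytes.

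Fibrillar collagens made up 87.1% to 91.4% of the collagen UMIs of mesenchymal cells. Col1a1 (chromosome 11, 94936224 to 94953042, GRCm38), the major chain of type I collagen, stood at 12240, 13040 and 34470 CPM in wild-type and 28840, 24190 and 29060 CPM in Nlrp3-/- libraries. Col3a1 (chromosome 1, 45311538 to 45349706), the collagen of early scar and of pliable tissue, followed with 14390, 16790 and 27840 CPM in wild-type and 21790, 23320 and 26950 CPM in Nlrp3-/- libraries. Col1a2 (chromosome 6, 4504814 to 4541544), the second chain of type I collagen, stood at 11140, 12280 and 22240 CPM against 16320, 16400 and 17860 CPM. In all of them wild-type replicate 3 was high and replicates 1 and 2 were low, so the Nlrp3-/- libraries lay between wild-type libraries. Mesenchymal cells supplied 96.7% of the Col1a1 UMIs, 97.1% of Col1a2 and 96.4% of Col3a1 over all cell types, with the set-aside clusters left out of the total. In mural cells Col3a1 averaged 8002 CPM and Col1a1 6414 CPM, and neither lay above the free RNA in all 6 libraries there.

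The promoters of Col1a2 and Col3a1 are shown because these genes, with Col1a1, had the highest levels. Promoter windows from RefSeq (GRCm38.p6, 250 bases before to 50 after the RefSeq start) were matched for 35 of the 44 members, in 38 windows. The members without an entry were Col1a1, Col2a1, Col4a3, Col5a2, Col9a3, Col12a1, Col14a1, Col22a1 and Col26a1. In the windows printed here and further below, 5′ to 3′ on the gene's own strand, capitals mark matches to 3 motifs searched on both strands. The TATA box was searched by its letters TATAAA, the CCAAT box by the letters in its name, and the GC box by its letters GGGCGG, where a match on the opposite strand reads as the reverse complement. No capital run overlaps another.
Col1a2, chr6:4505368-4505667, + strand: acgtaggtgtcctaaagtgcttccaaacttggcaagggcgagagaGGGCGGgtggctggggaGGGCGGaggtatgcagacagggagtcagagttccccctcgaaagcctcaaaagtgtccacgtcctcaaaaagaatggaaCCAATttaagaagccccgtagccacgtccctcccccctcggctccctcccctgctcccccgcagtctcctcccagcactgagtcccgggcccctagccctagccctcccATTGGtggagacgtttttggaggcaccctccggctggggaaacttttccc
Col3a1, chr1:45311288-45311587, + strand: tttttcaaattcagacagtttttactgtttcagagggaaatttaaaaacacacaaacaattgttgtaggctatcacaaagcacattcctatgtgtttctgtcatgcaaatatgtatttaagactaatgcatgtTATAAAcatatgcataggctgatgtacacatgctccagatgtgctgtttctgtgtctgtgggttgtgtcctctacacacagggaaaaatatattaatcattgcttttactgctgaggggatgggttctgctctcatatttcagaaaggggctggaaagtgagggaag
The Col1a2 window lies downstream of the first base of the gene given above, which comes from the GENCODE annotation and not from RefSeq. It had 61.0% G and C and held CCAAT on both strands and GGGCGG on its own strand, whereas that of Col3a1 had 37.7% G and C and held TATAAA alone, 117 bases before its start. Over the 38 member windows, GGGCGG was in 60.5%, against 35.7% of 32851 windows of all genes. TATAAA was in 13.2% against 13.6%, and CCAAT in 34.2% against 37.4%. A match is a description of letters, not evidence of a bound site.

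The minor fibrillar chains, which start fibrils and set their width, were led by Col5a2 at a mean of 2717 CPM and Col5a1 at 2007 CPM in mesenchymal cells. Col5a3, a less common type V chain, went the other way across cell types and was higher in mural cells in all 6 libraries, at 594 to 839 CPM, than in mesenchymal cells at 296 to 536 CPM. Col24a1 averaged 15.3 CPM in mesenchymal cells. Col27a1, a fibrillar collagen of cartilage, averaged 215 CPM in mesenchymal cells. In osteoclasts, the bone-resorbing cells, it stood at 24.1 to 65.1 CPM, against 2.21 to 9.22 CPM in macrophages and 33.9 to 237 CPM in free RNA. It was not above the free RNA in all 6 libraries. All collagen genes together were at 0.0154 to 0.0873 times the free RNA share in osteoclasts. Whether osteoclasts make Col27a1 was not tested.

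FACITs made up 2.58% to 5.76% of mesenchymal collagen UMIs, less than type VI collagen in every library. Col12a1, which bridges fibrils in tendon and ligament, averaged 1269 CPM, Col14a1 averaged 422 CPM and Col16a1 averaged 397 CPM. Type VI collagen, which forms beaded filaments around cells, made up 5.09% to 6.61%. Col6a1 averaged 1930 CPM and Col6a2 averaged 1019 CPM in mesenchymal cells. Col6a3, the largest chain of type VI, averaged 2301 CPM in mural cells and 1579 CPM in mesenchymal cells, higher in mural cells in all 6 libraries. Type VI collagen took 10.3% to 17.6% of the collagen UMIs of mural cells. Col8a1, a short-chain network collagen, averaged 231 CPM in mesenchymal and 171 CPM in mural cells.

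Endothelial cells had a different composition. Basement membrane chains made up 47.0% to 65.6% of their collagen UMIs and multiplexins 22.8% to 30.4%, against 0.0807% to 0.305% and 0.112% to 0.279% in mesenchymal cells. Col4a1 (chromosome 8, 11198423 to 11312826) stood at 2504, 2613 and 2930 CPM in wild-type and 2510, 2811 and 2859 CPM in Nlrp3-/- endothelial cells. Its partner Col4a2 (chromosome 8, 11312805 to 11449287) stood at 1426, 1479 and 1545 CPM against 1517, 1595 and 1679 CPM. Both varied little between libraries, and both were 9.59 times or more above the free RNA in every library. Col4a1 was at 1682 to 2877 CPM in mural cells, where it overlapped the endothelial range. Endothelial cells supplied 67.6% of the Col4a1 UMIs outside the set-aside clusters and mural cells 20.6%. Col18a1, the precursor of the antiangiogenic fragment endostatin, averaged 1356 CPM in mural and 1150 CPM in endothelial cells and lay higher in mural cells in 5 of 6 libraries. Col15a1, the other multiplexin, averaged 846 CPM in endothelial and 584 CPM in mural cells and was higher in endothelial cells in 5 of 6 libraries.

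Col4a1 and Col4a2 are shown by their promoters because the genes stand head to head and their levels kept a narrow ratio in endothelial and mural cells. The annotated starts lie 21 bases apart on opposite strands, and the windows share 78 bases.
Col4a1, chr8:11312777-11313076, - strand: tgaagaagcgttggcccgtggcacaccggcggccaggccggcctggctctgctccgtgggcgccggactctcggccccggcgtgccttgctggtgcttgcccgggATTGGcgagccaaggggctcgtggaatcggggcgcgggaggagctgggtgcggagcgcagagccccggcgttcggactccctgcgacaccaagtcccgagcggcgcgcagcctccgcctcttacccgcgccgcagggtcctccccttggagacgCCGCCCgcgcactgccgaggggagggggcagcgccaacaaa
Col4a2, chr8:11312555-11312854, + strand: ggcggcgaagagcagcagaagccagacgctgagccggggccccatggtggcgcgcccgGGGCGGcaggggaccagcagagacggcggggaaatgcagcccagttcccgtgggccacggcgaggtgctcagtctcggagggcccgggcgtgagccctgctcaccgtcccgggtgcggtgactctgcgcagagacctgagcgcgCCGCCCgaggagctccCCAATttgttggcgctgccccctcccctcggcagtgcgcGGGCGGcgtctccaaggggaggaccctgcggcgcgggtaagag
Both windows hold CCAAT and GGGCGG and no TATAAA. In the Col4a1 window both lie on the opposite strand, and in the Col4a2 window CCAAT lies on the gene's own strand and GGGCGG on both. The only GGGCGG match of the Col4a1 window and the last one of the Col4a2 window are the same bases, within the 78 shared ones. The windows have 74.0% and 73.7% G and C. Col4a1 UMIs per Col4a2 UMI ran from 1.66 to 1.90 over the 6 libraries in endothelial cells and from 1.83 to 2.16 in mural cells. In mesenchymal cells, where Col4a1 averaged 57.7 CPM, the ratio ran from 1.30 to 1.72.

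Immune cells showed collagen UMIs at a low and similar level. The collagen share in B cells, T and NK cells, macrophages, neutrophils, osteoclasts, dendritic cells, mast cells and progenitors was 0.0205% to 0.209%, which is 0.0104 to 0.0873 of the share in the free RNA of the same library. Erythroid cells of Nlrp3-/- replicate 1 were at 2.40% of UMIs and 0.999 times the free RNA, while those of the other 5 libraries were at 0.0280% to 0.0945%. In macrophages Col1a1 ran from 75.4 to 376 CPM and Col3a1 from 102 to 441 CPM, each far under the 2851 to 11230 CPM and 2899 to 8413 CPM of the free RNA. Whether such UMIs came from free RNA or from expression by these cells was not tested.

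Within mesenchymal cells, 7 subsets had at least 20 cells in every library. Tenocytes, the resident tendon cells, had the highest collagen share in the mean, at 6.90%, 7.12% and 13.6% in wild-type and 9.88%, 14.1% and 11.8% in Nlrp3-/- libraries. Their cells came from 3 clusters that the libraries filled unevenly, as given with the genotype comparison. Dividing cells had the lowest, at 3.84%, 4.03% and 8.28% against 5.92%, 6.96% and 6.12%. Col5a2 was highest in tenocytes in 6 of 6 libraries, with a mean of 3733 CPM. Col1a1, Col1a2, Col3a1, Col6a1, Col6a2, Col8a2, Col11a1, Col11a2, Col12a1 and Col16a1 were also highest there in the mean, in 4 or 5 of 6 libraries each, as were Col5a1, Col9a1 and Col9a3, in 3 of 6. Of these, Col9a1, Col9a3 and Col11a2 averaged only 23.1, 13.15 and 24.8 CPM in tenocytes. In mesenchymal cells as a whole these 3 did not lie above the free RNA in all 6 libraries. Whether tenocytes make them was not tested. Col11a1, which partners type II collagen but is also used by fibroblasts, averaged 1314 CPM in tenocytes and was lowest in 6 of 6 libraries in cells led by Cxcl3 and Prg4, at 252 CPM.

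Other members were highest in other subsets. Col5a3 was highest in cells led by Cxcl3 and Prg4, the gene of the joint lubricant lubricin, in 6 of 6 libraries, at 760 to 1357 CPM. It was lowest in the mean in cells led by Eln and Sfrp2, at 171 to 321 CPM. Col14a1 ran the other way, from a mean of 90.0 CPM in cells led by Cxcl3 and Prg4 to 861 CPM in cells led by Eln and Sfrp2, and it averaged 1449 CPM in universal fibroblast progenitors, a subset with as few as 16 cells in a library. Those progenitors also had 315 CPM of Col4a1 and 298 CPM of Col15a1 in the mean, against at most 87.5 and, chondrocytes aside, 62.7 CPM in the other subsets shown in the heat map. Col7a1, the collagen of anchoring fibrils, was highest in cells led by Actg2 and Acta2, genes of contractile cells, in 6 of 6 libraries, at 28.9 to 63.6 CPM. Col6a6, a rare type VI chain, averaged 79.2 CPM in universal progenitors. Col23a1, a transmembrane collagen, averaged 58.5 CPM in cells led by Eln and Sfrp2, and Col22a1, a FACIT of tissue junctions, averaged 18.0 CPM in cells led by Cxcl3 and Prg4.

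The cartilage collagens were highest in chondrocytes. A shallow cluster of 256 mesenchymal cells, 95.7% of them from Nlrp3-/- replicate 1 and led by Ibsp, Snorc and Chad, was set aside from the subsets and is not among the chondrocytes counted here. Chondrocytes numbered 101, 17 and 67 in wild-type and 56, 537 and 11 in Nlrp3-/- libraries and averaged 21260 CPM of Col2a1, 5524 CPM of Col11a1, 2084 CPM of Col10a1, the collagen of hypertrophic cartilage, and 1220 to 1777 CPM of the type IX chains Col9a1, Col9a2 and Col9a3. They joined unevenly filled clusters. The cluster led by Snorc and Hapln1 held 85.15%, 0% and 80.6% of them in wild-type and 46.4%, 95.7% and 63.6% in Nlrp3-/- libraries. These means thus mix different clusters by library. Over all mesenchymal cells Col2a1 was at 4183, 29.3 and 1635 CPM in wild-type and 887, 12570 and 12.5 CPM in Nlrp3-/- libraries. Nlrp3-/- replicate 2 was high, and wild-type replicate 2 and Nlrp3-/- replicate 3 were low. The summed level of 9 chondrocyte markers that are not collagens put the libraries in nearly the same order, from 211 to 2200 CPM in wild-type and from 552 to 7573 CPM in Nlrp3-/- mesenchymal cells, with no marker at 0. Chondrocytes were 0.692% to 8.30% of wild-type and 0.354% to 27.5% of Nlrp3-/- mesenchymal cells. In tenocytes Col2a1 averaged 43.4 CPM, with the highest value, 161 CPM, again in Nlrp3-/- replicate 2. It averaged 40.5 CPM in T and NK cells, whose collagen share lay under that of the free RNA in every library. Even in mesenchymal cells as a whole, Col2a1 did not lie above the free RNA in all 6 libraries. Whether tenocytes make Col2a1 was not tested.

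**Figure D3:**
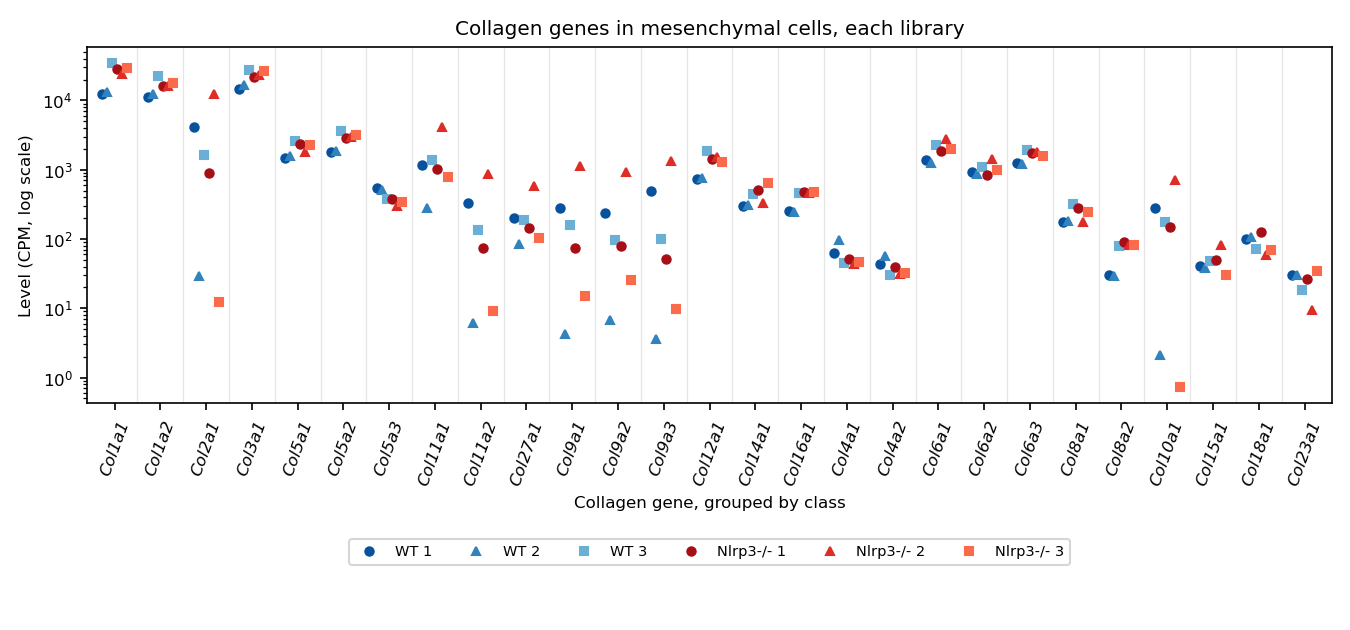
Level in CPM (log axis) of the 27 collagen genes with at least 20 CPM in mesenchymal cells, 1 point per library, with wild-type (WT) libraries in blue and Nlrp3-/- libraries in red. Col1a1, Col1a2 and Col3a1 lie above 10000 CPM in every library, whereas Col2a1 ranges from 12.5 to 12570 CPM.

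The genotype comparison asked whether collagen expression in mesenchymal cells differed without Nlrp3. With all 6 libraries, no collagen gene passed the edgeR quasi-likelihood test on summed UMIs at a Benjamini-Hochberg adjusted p of 0.05. Of 39 members tested, 0 were called, 26 had a positive log2 fold change (Nlrp3-/- over wild-type) and 1, Col5a3, had an unadjusted p under 0.05, as did 12.6% of all genes. Over all genes, 17 of 14915 were called, or 0.114%. The median log2 fold change of the members was 0.22, against 0.04 over all genes. DESeq2 also called 0 members, with 3 at an unadjusted p under 0.05, while it called 1.82% of all genes. Col4a3, Col4a6, Col6a4, Col19a1 and Col26a1 were too low to be tested.

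Among the most abundant members, Col1a1 stood at a log2 fold change of 0.39, its standard error (SE) being 0.41 (edgeR adjusted p = 0.653). Col3a1 was at 0.22 (SE 0.27, edgeR adjusted p = 0.7) and Col1a2 at 0.08 (SE 0.28, edgeR adjusted p = 0.899). Col5a2 was at 0.24 (SE 0.29, edgeR adjusted p = 0.69). These differences were smaller than, or close to, their errors. Of the members with at least 20 CPM, the type IX chains had the largest positive values, with Col9a2 at 1.56 (SE 1.51, edgeR adjusted p = 0.626), and Col9a1 at 1.44 and Col9a3 at 1.24 with SEs of 1.70 and 1.92. Col2a1 was at 1.18 (SE 2.05, edgeR adjusted p = 0.79). Without Nlrp3-/- replicate 2, the library with the most chondrocytes, the signs turned, to -1.23 for Col9a2, -1.85 for Col9a1, -2.78 for Col9a3 and -2.22 for Col2a1. The chondrocyte shares given above moved with these values, and their part in the result was not tested.

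Of the members with at least 20 CPM, Col4a1, Col5a3 and Col4a2 had the largest negative values. Col4a1 was at 63.0, 96.7 and 45.0 CPM in wild-type and 50.7, 43.8 and 46.9 CPM in Nlrp3-/- mesenchymal cells. Its groups overlapped, at a log2 fold change of -0.60 (SE 0.27, edgeR adjusted p = 0.398). In free RNA Col4a1 was at 138 to 273 CPM, above all of these values. Col5a3 was at 536, 515 and 383 CPM in wild-type and 375, 296 and 341 CPM in Nlrp3-/- cells, with no overlap, at -0.57 (SE 0.17, edgeR adjusted p = 0.361). Col4a2 was at -0.42 (SE 0.23, edgeR adjusted p = 0.439) and did not lie above the free RNA in all 6 libraries. Col5a3 was the only member of the 39 whose Nlrp3-/- libraries all lay below the wild-type ones, a pattern found in 9.11% of all genes. These counts were made in CPM after TMM scaling. There no member had all Nlrp3-/- libraries above all wild-type libraries, against 9.53% of all genes. In the unscaled CPM printed here, Col8a2 had this pattern. Col5a3 was lower in Nlrp3-/- mesenchymal cells while the subset in which it was highest, the cells led by Cxcl3 and Prg4, made up 10.8% to 13.2% of wild-type and 4.29% to 11.6% of Nlrp3-/- mesenchymal cells. Cells led by Eln and Sfrp2, in which Col5a3 was lowest, made up 0.854% to 3.39% of wild-type and 2.36% to 15.4% of Nlrp3-/- mesenchymal cells. Dividing cells, at a mean of 616 CPM of Col5a3, made up 11.9% to 18.4% and 4.72% to 8.73%. The part of these shares in the difference was not tested.

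Wild-type replicate 3 decided the count of calls. Without it, 5 members passed the edgeR test in mesenchymal cells, while 3.33% of all genes did. Col8a2, a network-forming collagen, was higher at a log2 fold change of 1.45 (SE 0.10, edgeR adjusted p = 0.0276), as were Col1a1 at 1.03, Col12a1 at 0.87 and Col16a1 at 0.84. Col5a3 was lower at -0.72 (SE 0.12, edgeR adjusted p = 0.0483). Col8a2 was at 29.9 and 29.1 CPM in wild-type replicates 1 and 2, at 79.5 CPM in replicate 3 and at 81.9 to 90.9 CPM in Nlrp3-/- libraries. Removing any of the other 5 libraries gave 0 calls. Wild-type replicate 3 also had the highest level of matrix-building markers and the highest share of tenocytes of the 6 libraries. Matrix-building fibroblast markers, 7 genes with none at 0, were at 15400 CPM there, against 6871 and 6885 CPM in wild-type replicates 1 and 2 and 9322 to 14710 CPM in Nlrp3-/- libraries. Tenocytes were 34.0% of its mesenchymal cells, against 8.38% and 9.28% in the other wild-type libraries and 19.9% to 27.1% in Nlrp3-/- libraries. The part of these shares in the result was not tested.

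**Figure D4:**
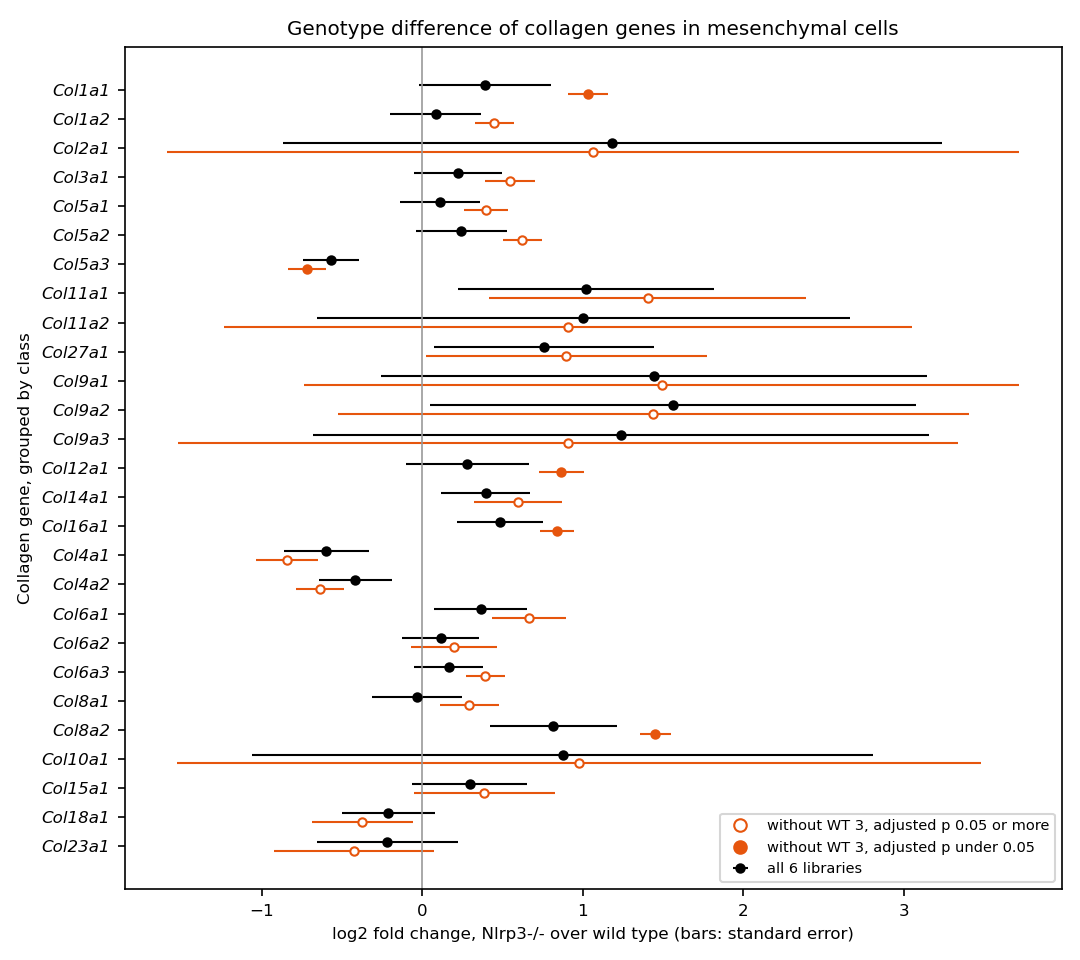
Log2 fold change of Nlrp3-/- over wild-type (horizontal axis, bars are standard errors) of 27 collagen genes in mesenchymal cells, with all 6 libraries (black) and without wild-type (WT) replicate 3 (orange, filled where the edgeR adjusted p was under 0.05). No black point passed the threshold, 5 orange points did, and Col2a1, Col10a1, Col9a3, Col9a1, Col11a2 and Col9a2 have the widest bars.

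Ratios between collagen chains fell into several patterns, of which some set wild-type replicates 1 and 2 apart from the other 4 libraries. In mesenchymal cells Col1a1 UMIs per Col1a2 UMI were 1.10, 1.06 and 1.55 in wild-type and 1.77, 1.48 and 1.63 in Nlrp3-/- libraries. Replicate 3 of the wild type lay inside the Nlrp3-/- range. Col6a1 per Col6a2 gave the same split, with 1.48, 1.48 and 2.12 against 2.20, 1.96 and 2.05. Within dividing cells, Col1a1 per Col1a2 was 1.11, 1.04 and 1.51 against 1.68, 1.57 and 1.54. Col3a1 per Col1a1 ran the other way, at 1.18, 1.29 and 0.808 in wild-type and 0.755, 0.964 and 0.927 in Nlrp3-/- libraries. Col5a1 per Col1a1 was 0.120 and 0.122 in wild-type replicates 1 and 2 and 0.0743 to 0.0807 in the other 4. No such split was seen for Col5a2 per Col5a1, at 1.24, 1.18 and 1.38 against 1.22, 1.66 and 1.41, for Col6a3 per Col6a1, at 0.888, 0.971 and 0.829 against 0.939, 0.650 and 0.782, or for Col4a1 per Col4a2. Col8a1 per Col8a2 was higher in every wild-type library, at 5.94, 6.30 and 4.07 against 3.06, 2.15 and 3.01. In dividing cells that ratio overlapped between genotypes, at 14.2, 11.7 and 7.93 against 10.9, 11.3 and 8.15. In B cells, where collagen UMIs lay far below the free RNA, Col1a1 per Col1a2 was again 1.06 and 1.06 in wild-type replicates 1 and 2 and 1.61 to 2.18 in the other 4. The free RNA carried a like split. There Col1a1 and Col1a2 were at 2851 and 2293, 4832 and 3982, and 11230 and 6645 CPM in wild-type replicates 1 to 3. In Nlrp3-/- replicates 1 to 3 they were at 8765 and 4252, 8290 and 5153, and 9538 and 5599 CPM. The B cell ratio is thus not read apart from the free RNA. The gap closed in T and NK cells, where wild-type replicate 1 was at 1.43 and Nlrp3-/- replicate 2 at 1.43. In conventional dendritic cells the order was lost, with wild-type replicate 1 at 1.40 and replicate 3 at 1.37. The labels name no batch that would group the libraries this way. These ratios were noticed after the values had been seen and were given no test.

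**Figure D5:**
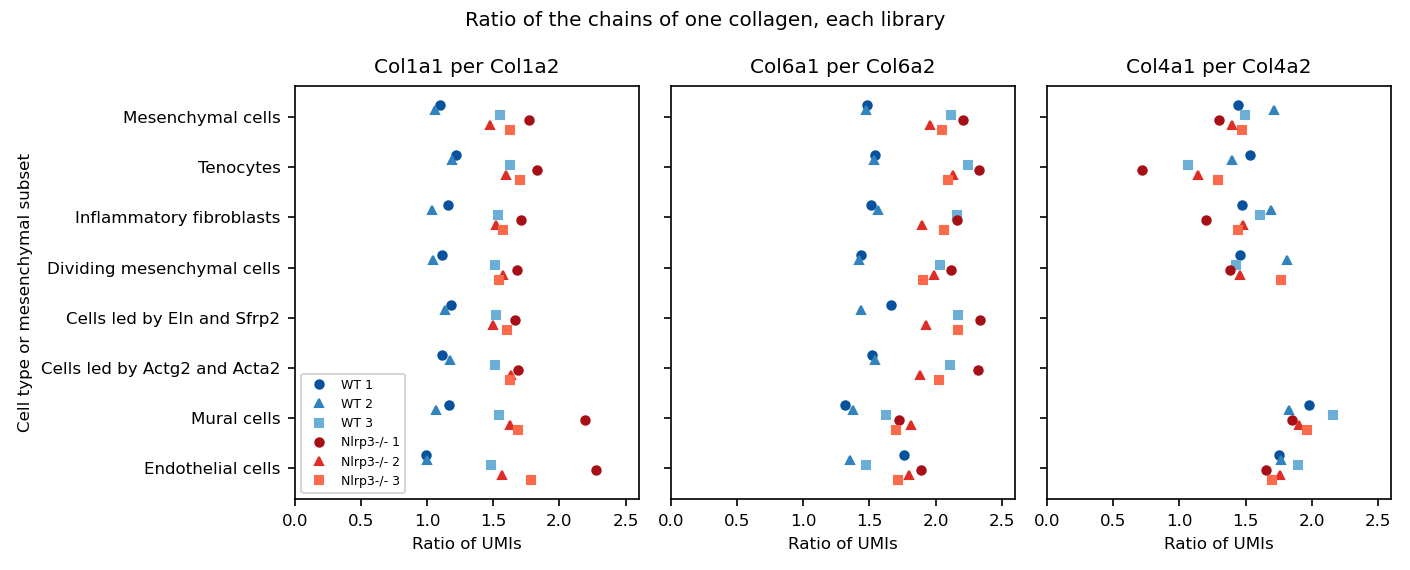
Ratio of UMIs between chains of the same collagen (horizontal axis) in 8 cell types and mesenchymal subsets, 1 point per library, with wild-type (WT) libraries in blue and Nlrp3-/- libraries in red and ratios shown only where both chains were well counted. For Col1a1 per Col1a2, wild-type replicates 1 and 2 lie at 0.993 to 1.22 and the other 4 libraries at 1.475 or above, while Col4a1 per Col4a2 shows no such split in endothelial cells.

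Within mesenchymal subsets, edgeR called 0 members with all 6 libraries. In tenocytes, 0 of 30 members passed while 0.149% of all genes did, and 8 members had an unadjusted p under 0.05, as did 10.5% of all genes. In inflammatory fibroblasts, a subset marked by cytokine genes, 0 of 29 passed (0.253% of genes) and 9 were under 0.05 unadjusted (12.3% of genes). In dividing cells 0 of 30 passed (0.14% of genes) and 1 was under 0.05 unadjusted (12.4%). In cells led by Retnlg and S100a9, genes of neutrophils, 0 of 30 passed (0.0506%) and 2 were under 0.05 unadjusted (12.0%). In cells led by Actg2 and Acta2 0 of 29 passed (0.269%) and 5 were under 0.05 unadjusted (10.5%). In cells led by Cxcl3 and Prg4 0 of 27 passed (0.231%) and 2 were under 0.05 unadjusted (17.0%). In cells led by Eln and Sfrp2 0 of 25 passed (0.0957%) and 4 were under 0.05 unadjusted (7.64%). DESeq2 called Col4a1 and Col15a1 as lower in inflammatory fibroblasts, where it called 1.35% of all genes. These averaged 74.4 and 21.42 CPM there, under their free RNA levels of 138 to 273 and 49.85 to 73.4 CPM. In tenocytes, where DESeq2 called 1.01% of all genes, it called Col8a1 as lower and Col9a2 and Col9a3 as higher. Free RNA of Col9a2 ran from 3.30 to 446 CPM between libraries. Tenocytes averaged 13.15 CPM of Col9a3, which was not above the free RNA in all 6 libraries in mesenchymal cells as a whole. The part of free RNA in these calls was not tested.

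The libraries filled the clusters behind these names unevenly. Tenocytes joined 3 clusters. The cluster led by Dlk1 and Chodl held 77.5% and 76.3% of the tenocytes of wild-type replicates 1 and 2, the cluster led by Tnmd and Mstn held 92.9%, 96.0% and 57.5% of those of wild-type replicate 3 and Nlrp3-/- replicates 2 and 3, and the cluster led by Eln and Tnmd held 88.9% of those of Nlrp3-/- replicate 1. Inflammatory fibroblasts also joined 3 clusters. The cluster led by Saa3 and Cxcl5 held 39.8% to 66.5% of those cells in wild-type and 1.75% to 11.9% in Nlrp3-/- libraries, while the cluster led by Mmp3 and Mmp13 held 73.7% and 78.7% of them in Nlrp3-/- replicates 2 and 3. Values within either name thus partly compare different clusters.

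Among the subset results, Col4a1 had the lowest adjusted p. In inflammatory fibroblasts it was at 86.5, 92.9 and 111 CPM in wild-type and 61.0, 46.7 and 48.2 CPM in Nlrp3-/- libraries, without overlap, at a log2 fold change of -0.99 (SE 0.17, edgeR adjusted p = 0.0577). Without wild-type replicate 3 Col4a1 passed at -0.92 (edgeR adjusted p = 0.0229), while 4.4% of genes did. In free RNA Col4a1 was at 138 to 273 CPM, so all of these levels lay under it. The part of free RNA in this difference was not tested. In tenocytes Col9a2 was at a log2 fold change of 1.91 (SE 0.34, edgeR adjusted p = 0.122), while its free RNA ran from 3.30 to 446 CPM between libraries. Without wild-type replicate 3, 10 members passed in tenocytes, while 3.31% of genes did. Of these, Col1a1, Col8a2, Col9a2, Col9a3, Col11a1, Col14a1 and Col16a1 were higher and Col4a1, Col4a2 and Col18a1 lower in Nlrp3-/- libraries. In mesenchymal cells as a whole, Col4a1, Col4a2, Col9a3 and Col18a1 did not lie above the free RNA in all 6 libraries.

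Outside mesenchymal cells, edgeR made 4 calls on 3 members, all higher in Nlrp3-/- libraries and all at levels below 50 CPM. Col4a5, an X-linked basement membrane chain, was at 2.9, 3.8 and 4.22 CPM in wild-type and 16.1, 30.8 and 21.0 CPM in Nlrp3-/- mural cells, from 5, 7 and 4 UMIs and 38, 42 and 36 UMIs. No wild-type value reached the Nlrp3-/- ones, and the log2 fold change was 2.49 (SE 0.36, edgeR adjusted p = 0.0357), while 1 of 24 members and 0.169% of genes passed. With Xist and the Y-linked genes separating the groups, genotype and sex cannot be told apart for an X-linked gene. In mesenchymal cells Col4a5 did not pass, at 0.84 (SE 0.44, edgeR adjusted p = 0.431), and the difference between the cell types was not tested. Col4a5 did not pass without wild-type replicate 1 (edgeR adjusted p = 0.257) or replicate 2 (0.229), or without Nlrp3-/- replicate 2 (0.114) or replicate 3 (0.12).

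Col6a1 was at 12.4, 17.5 and 11.5 CPM in wild-type and 45.4, 36.4 and 38.9 CPM in Nlrp3-/- osteoclasts (log2 fold change 1.33, SE 0.20, edgeR adjusted p = 0.0166). There 1 of 20 members and 0.781% of genes passed. In hematopoietic progenitors it was at 6.47, 12.1 and 7.50 CPM against 19.7, 24.1 and 28.5 CPM (log2 fold change 1.32, SE 0.24, edgeR adjusted p = 0.0441), where 1 of 20 members and 0.636% of genes passed. The groups did not overlap in either type, but Col6a1 in free RNA was at 321 to 997 CPM, above all of these levels. The osteoclast call was lost without wild-type replicate 1 (edgeR adjusted p = 0.0721), Nlrp3-/- replicate 1 (0.0796) or replicate 3 (0.0853). The progenitor call was lost without wild-type replicate 1 (edgeR adjusted p = 0.251) or Nlrp3-/- replicates 2 (0.0953) or 3 (0.188). Col18a1 was at 4.36, 5.88 and 5.59 CPM in wild-type and 10.9, 11.8 and 10.4 CPM in Nlrp3-/- macrophages (log2 fold change 0.92, SE 0.15, edgeR adjusted p = 0.0431), where 1 of 27 members and 0.577% of genes passed. In free RNA Col18a1 was at 84.1 to 137 CPM in wild-type and 93.6 to 149 CPM in Nlrp3-/- libraries. This call stood only when wild-type replicate 3 was the library removed (edgeR adjusted p = 0.0135), and missed the threshold without any of the other 5, at edgeR adjusted p of 0.0799 to 0.197.

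In the remaining cell types edgeR called 0 members. Endothelial cells had 0 of 23 called (0.391% of all genes) and 13 at an unadjusted p under 0.05 (20.8% of all genes). The 4 leading endothelial members, Col4a1, Col4a2, Col15a1 and Col18a1, were not among these 13, which all had positive log2 fold changes apart from Col8a1 and included Col12a1, Col11a1 and Col1a1. Col1a1 was at 56.2, 108 and 125 CPM in wild-type and 913, 202 and 294 CPM in Nlrp3-/- endothelial cells. Erythroid cells had 0 of 12 called (0.174% of genes) and 12 under 0.05 unadjusted (22.2%), with the collagen share of Nlrp3-/- replicate 1 given above. B cells had 0 of 17 called (0.277%) and 9 under 0.05 unadjusted (8.5%). T and NK cells had 0 of 12 called (0.466%) and 6 under 0.05 unadjusted (11.1%). Mast cells and basophils had 0 of 9 called (0.324%) and 6 under 0.05 unadjusted (10.8%). Conventional dendritic cells had 0 of 10 called (0.64%) and 2 under 0.05 unadjusted (17.7%). Plasmacytoid dendritic cells had 0 of 3 called (0.715%) and 2 under 0.05 unadjusted (13.7%). Neutrophils had 0 of 25 called (0.345%) and 1 under 0.05 unadjusted (13.8%). The collagen share of macrophages was 0.0396% to 0.0696% in wild-type and 0.0791% to 0.130% in Nlrp3-/- libraries, while that of the free RNA was 1.23% to 3.30% and 2.40% to 3.45%. The part of free RNA in these differences was not tested.

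A list of genes that process or bind collagen held the hydroxylases, glycosyltransferases, chaperones, propeptide proteinases, cross-linking oxidases and receptors of collagen. By mean level in mesenchymal cells, each step was led by P4hb, a subunit of prolyl 4-hydroxylase, at 675 CPM, Colgalt1, a galactosyltransferase, at 255 CPM, Serpinh1, the collagen chaperone HSP47, at 2707 CPM, Pcolce, an enhancer of procollagen cleavage, at 739 CPM, Lox, the lysyl oxidase that cross-links fibrils, at 777 CPM and Itgb1, the shared beta chain of collagen-binding integrins, at 511 CPM. Serpinh1 averaged 35.5 CPM in macrophages and 1079 CPM in endothelial cells. Lox was at 103 CPM in mural cells and 7.39 CPM in endothelial cells. Between genotypes, edgeR called 0 of 42 such genes in mesenchymal cells, against 0.114% of all genes. An unadjusted p under 0.05 was found for 2 of the 42, against 12.6% of all genes, and 28 had a positive log2 fold change. Their median log2 fold change was 0.11, against 0.04 over all genes. Pcolce was at -0.55 (SE 0.19, edgeR adjusted p = 0.373). Adamts14, a procollagen proteinase, was at -0.98 (SE 0.23, edgeR adjusted p = 0.324) and was the 1 gene of the list that DESeq2 called, while it called 1.82% of all genes.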

How the data were processed

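Cells of the rotator cuff enthesis were profiled with droplet-based 3′ single-cell RNA sequencing in 3 wild-type and 3 Nlrp3-/- libraries, grouped by the labels. The authors deposited unfiltered matrices of raw UMI counts per gene and barcode. The submitters' processing notes name Cell Ranger 2.1.1 and mm10, while the matrix headers read version 4. Of 102465 barcodes with at least 500 UMIs, 91003 differed from free RNA (FDR 0.01, 10000 simulations from barcodes with at most 100 UMIs) and 88383 passed at least 200 genes and at most 10% mitochondrial UMIs. Scrublet's highest-scoring cells, 0.8% per 1000 cells, were removed as likely doublets, leaving 76676 cells, set-aside clusters included. Cells were clustered with scanpy 1.11.5 and leidenalg 0.10.2 (2000 variable genes, 30 principal components, 15 neighbours, resolution 1) without Nlrp3, sex-linked genes and the 44 collagen genes. A cluster took a cell type's name when at least 3 of its markers were at least 1.5-fold higher and found in at least 10% of its cells, its mean log2 fold over the markers led the next list by at least 0.4, and no other list had more markers among the cluster's 10 leading genes. A very shallow cluster with no marker among its leading genes stayed unnamed. Other clusters are called by 2 leading genes. Clusters with more than 75% of cells from 1 library and a depth below that library's median were set aside, 9534 cells in all at the level of cell types. By the same rule, 401 mesenchymal cells were left out of the subsets but kept in the mesenchymal sums, 266 of them from Nlrp3-/- replicate 1 and 131 from replicate 2.

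Within each library, the UMI counts of a cell type or subset were added up, and the sums were tested where every library had at least 20 cells of it. Levels of chondrocytes and universal fibroblast progenitors, with as few as 11 and 16 cells in a library, are given without a test. Levels are CPM of those sums, do not scale with transcript length, and are given as mean of 3 or 6 libraries. Sums were tested with edgeR 4.0.16 (quasi-likelihood, TMM, filterByExpr, Benjamini-Hochberg over all genes tested, threshold 0.05) in R 4.3.3. The test was tried on simulated counts for 14726 genes of mesenchymal cells, where it called 11.2% of 98 genes changed 2-fold and 75.3% of 97 genes changed 4-fold. DESeq2 1.42.0, other scalings, filters, clusterings and left-out libraries were alternatives. A member was described at a mean of 20 CPM in a group of a cell type or subset. Genotype results named every member called, the 5 members of highest mean level in mesenchymal cells and, of those with at least 20 CPM, the 3 with the largest and the 3 with the smallest log2 fold change. Motifs and chain ratios were added after values had been seen. The collagen genes, the other gene lists and the comparisons were chosen with earlier results of these data known.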

Additional observations from a re-analysis of the deposited data

Results flagged for a closer look

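The clusters set aside for holding mostly 1 library were outside the comparisons, and those of Nlrp3-/- replicate 1, with 9235 cells, carried collagen UMIs at 4.578% of their total. The free RNA of that library was at 2.40% and its mesenchymal cells at 8.26%. The set-aside clusters of the other 5 libraries, with 43 to 87 cells each, ran from 2.01% to 5.34%, so the value lay within the range of the wild-type libraries.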

How the results depend on the processing

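With single libraries left out, the count of collagen genes called by edgeR ran from 0 to 5 in mesenchymal cells, from 0 to 32 over their subsets and from 0 to 25 over the other cell types, each highest without wild-type replicate 3, where 3.33% of all genes were called in mesenchymal cells, 0.0867% to 10.4% in a subset and 0.0233% to 20.4% in another cell type. The other cell types gave 4 calls with all libraries, 0 without wild-type replicate 1 or Nlrp3-/- replicate 3 (0.0354% to 0.348% and 0.0351% to 0.729% of all genes called per type), and 9 without Nlrp3-/- replicate 1 (0.0969% to 9.84%, with 5 of the 9 in erythroid cells at 9.84%), in fits added after the data had been seen. DESeq2 called 5 members over the subsets and 1 processing gene, for which left-out libraries gave 0 to 1. The replicate block called 1 member over the subsets, Col9a2 in tenocytes, and 0 in mesenchymal cells, where it reversed Col2a1 to -2.16, Col9a1 to -1.08, Col9a2 to -0.28 and Col9a3 to -1.78. Its share of calls over all genes is not given here, so these counts are not read as a result about the members. Same-numbered libraries did not deviate together (correlations of -0.094, -0.542 and -0.103), while differently numbered pairs ran from -0.472 to 0.509. The labels give same-numbered libraries nothing else in common, and shared handling was not tested. Left-out libraries moved the log2 fold change of Col1a2 from -0.10 to 0.45, with -0.05 without wild-type replicate 2, of Col2a1 from -2.22 to 2.40, of Col9a1 from -1.85 to 2.29, of Col9a2 from -1.23 to 2.71 and of Col9a3 from -2.78 to 3.18. The cause was not tested. Col1a1 at 1.03 and Col5a3 at -0.72 passed only without wild-type replicate 3. Col3a1, Col4a1, Col4a2 and Col5a2 kept direction and side of the threshold in all 16 alternatives. The collagen share of mesenchymal cells moved by less than 1 SD between libraries in all 12 alternatives, from 7.53% to 8.57%. For the alternatives that left out 1 library this outcome was fixed in advance, so it is no sign of stability there. DESeq2 called 271 genes of all tested in mesenchymal cells, against 17 with edgeR. With 3 libraries a group, changes near 2-fold were mostly below what the test could call.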
